A study of Mus musculus with 8 samples.

Results

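The genes described are 10 components of the Notch pathway: the receptors Notch1 and Notch2, the ligands Jag1, Jag2 and Dll1, the receptor-modifying enzyme Lfng, and the effectors Hes1, Hes5, Hey1 and Hey2. They were chosen by name, and all 10 of 10 were measured, among 22180 genes with a feature that the platform annotation links to a single symbol. The samples were whole cochleae with their bony capsule from mice at postnatal day 16, both cochleae of an animal pooled on 1 Affymetrix Mouse Gene 2.0 ST array, with 4 animals labelled miR-183/96 KO and 4 labelled control, which the series' design text calls wild type. The sources used here do not state the strain, the sex, the kind of allele or the cells that carry the deletion. Total RNA was labelled, so a value reflects both the number of cells that contain a transcript and the amount in each cell, and these cannot be told apart.

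Notch signalling passes between touching cells. A ligand of the Delta or Jagged family on one cell binds a Notch receptor on its neighbour, proteases then free the receptor's intracellular part, and this part joins the DNA-binding protein RBPJ to switch on repressor genes of the Hes and Hey families. In the developing cochlea, Jag1 marks the prosensory domain and the supporting cells, while Dll1 and Jag2 on new hair cells keep their neighbours from becoming hair cells, largely through Hes1, Hes5 and Hey genes. The pathway also acts in blood vessels, bone and blood-forming marrow, tissues that a whole cochlea with its capsule includes.

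The microRNAs miR-183 and miR-96, which name the knockout, are shown first with miR-182 of the same cluster. The labels do not name miR-182. The mature 5p sequences of the cluster, from RefSeq on GRCm38.p6, lie on the minus strand of chromosome 6, at chr6:30169506-30169528 for Mir96, chr6:30169711-30169732 for Mir183 and chr6:30165962-30165986 for Mir182. Capitals mark the seed, bases 2 to 8, which pairs with target transcripts.
mmu-miR-96-5p: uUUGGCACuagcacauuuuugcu
mmu-miR-183-5p: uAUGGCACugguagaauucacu
mmu-miR-182-5p: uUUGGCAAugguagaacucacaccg
The 3 seeds are distinct and share the run UGGCA. Pairing of these seeds with the Notch transcripts was not analysed here.

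RBPJ recognises a short sequence that contains GTGGGAA, and this was searched on both strands of RefSeq promoters, each spanning 250 bases before to 50 bases after an annotated start. Of the 10 Notch genes, 8 had an entry, with 9 promoters in all, and Hes1 and Hey1 were not analysed here. The sequence was found in 3 of these 9 promoters, those of Hes5, Lfng and Hey2, and in 6.38% of all 32851 promoters. Hes5 and Hey2 held it 2 times each, with no overlap between the matches. The stretches before the start are shown because they are the letters that set these 3 genes apart from the other entries. Capitals mark the match, as GTGGGAA or as its reverse complement TTCCCAC, and each line reads 5′ to 3′ along the gene's strand, at chr4:154960673-154960748 and chr4:154960795-154960891 (plus) for Hes5, chr5:140607187-140607283 (plus) for Lfng and chr10:30842939-30843033 (minus) for Hey2.
Hes5 distal: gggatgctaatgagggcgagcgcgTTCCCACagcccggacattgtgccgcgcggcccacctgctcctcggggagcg
Hes5 proximal: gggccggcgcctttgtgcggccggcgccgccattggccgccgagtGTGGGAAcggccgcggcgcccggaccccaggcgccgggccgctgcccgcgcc
Lfng: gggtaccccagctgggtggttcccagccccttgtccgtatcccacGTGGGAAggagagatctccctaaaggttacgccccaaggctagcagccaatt
Hey2: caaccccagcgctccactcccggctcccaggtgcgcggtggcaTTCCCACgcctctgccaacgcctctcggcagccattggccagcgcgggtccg
The matches began 226 and 83 bases before the start in Hes5, 109 in Lfng and 207 in Hey2. The second match of Hey2 spans its start and is not printed. A match describes the letters only and does not show that RBPJ binds there.

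The labels were checked on the microRNA cluster. Mir96 read 4.01, 4.26, 4.26 and 4.31 on the 4 knockout arrays and 5.71, 5.26, 6.23 and 5.57 on the 4 control arrays, a log2 difference of -1.48 (limma SE 0.17, adjusted p = 0.00932). The 2 groups did not overlap in Mir96. In Mir183, which the labels also name, they did overlap, at 1.82 to 2.40 in knockout and 2.23 to 2.84 in control animals. With control replicate 1 left out, Mir96 no longer passed (adjusted p = 0.0677), nor did it when all 41345 features of the table were tested (0.184). Mir183, at -0.33 (adjusted p = 0.398), and Mir182, at 0.35 (adjusted p = 0.364), were dim features at the 3.51th and 12.6th percentile of mean level. Features of genes that mark the cochlea were present, with mean levels from 4.54 for the outer hair cell motor gene Slc26a5 to 10.5 for Coch, which fibrocytes express. Over all 23521 features tested, 3 passed an adjusted p of 0.05, which is 0.0128%, and 3361 had an unadjusted p under 0.05, which is 14.3%. Arrays correlated with each other at 0.947 to 0.976.

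None of the 10 Notch genes passed: 0 had an adjusted p under 0.05 and 0 an unadjusted p under 0.05 in limma, against the 14.3% of all features given above. The log2 differences, knockout minus control, ran from -0.18 for Hey1 to 0.23 for Hey2, with 6 below 0 and 4 above, and the adjusted p values from 0.416 to 0.856. The median difference was -0.07, beside 0.01 over all features, and the median size of difference was 0.15 for both. In all 10 genes the values of the 2 groups overlapped, whereas they did not overlap at 5.96% of all features. A p that misses the threshold does not show that a gene was unchanged, so the intervals matter. They bound differences in array value, and signal over background was not measured. Mean levels of the 10 genes ran from percentile 32.8 (Hes5) to 92.2 (Hey1) of all features. The 95% intervals of the 10 differences, each taken on its own, reached down to -0.49 (Hes5) and up to 0.52 (Hey2), which corresponds to 1.40-fold lower and 1.43-fold higher. A change of 1.5-fold, 0.58 on the log2 scale, lay outside each of these intervals, and outside those after cyclic loess normalization, an intensity-dependent rescaling of the arrays, where the outermost bounds were -0.55 and 0.52. In some other fits it did not lie outside all of them. With the SD of each array's log2 values as a covariate, the intervals of Hes5 (down to -0.87), Hes1 (up to 0.87) and Hey2 (up to 0.70) took it in. With 1 array left out, so did the interval of Hes5 without knockout replicate 1 (down to -0.60), that of Hey2 without knockout replicate 2 (up to 0.59), knockout replicate 3 (0.60) or control replicate 2 (0.60), and that of Hes1 without control replicate 2 (up to 0.59).

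**Figure D1:**
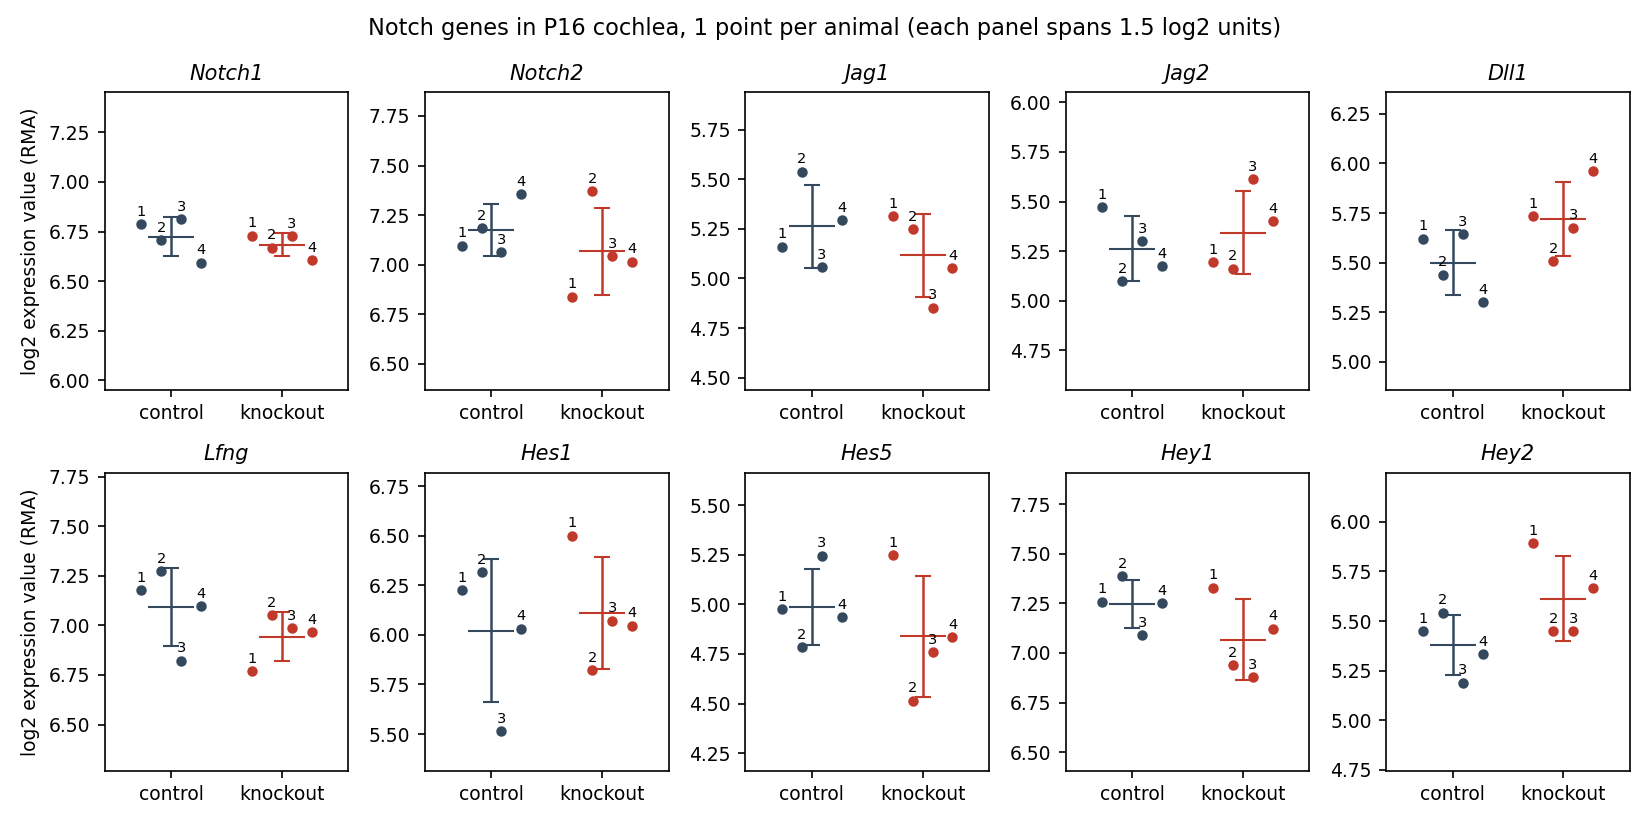
Log2 expression values (RMA, vertical axis) of the 10 Notch genes in control (grey) and knockout (red) cochlea, 1 point per animal with its replicate number, and the group mean with its SD (n = 4 in each group). Each panel spans the same height, and the groups overlap in all 10 panels.

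The receptors lay close together in both groups. Notch1, the receptor that carries most of the signal in the embryonic cochlea, read 6.73, 6.67, 6.73 and 6.61 in knockout and 6.79, 6.71, 6.81 and 6.59 in control cochlea. The groups covered nearly the same narrow range, and Notch1 had the smallest spread within groups of the 10 genes (pooled SD 0.08). Its difference was -0.04 (SE 0.10, 95% interval -0.26 to 0.17). Notch2, a receptor with roles in vessels, bone and B cells, read 6.84, 7.37, 7.04 and 7.01 in knockout and 7.10, 7.18, 7.06 and 7.35 in control cochlea. The highest and the lowest of these values both came from knockout animals, so the control animals lay inside the knockout range. The difference in Notch2 was -0.11 (SE 0.12, interval -0.38 to 0.16).

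None of the ligands passed. Jag1, the ligand of prosensory and supporting cells, read 5.31, 5.25, 4.85 and 5.05 in knockout and 5.16, 5.54, 5.06 and 5.30 in control cochlea. The lowest value belonged to a knockout animal and the highest to a control animal, with the other 6 interleaved. Its difference was -0.15 (SE 0.14, interval -0.45 to 0.16; adjusted p = 0.619). Jag2, a ligand of hair cells, read 5.19, 5.16, 5.61 and 5.40 in knockout and 5.47, 5.10, 5.30 and 5.18 in control cochlea, a difference of 0.08 (SE 0.13, interval -0.21 to 0.37; -0.010 without knockout replicate 3). Its groups ran over nearly the same range, with knockout replicate 3 highest. Dll1, a Delta family ligand of nascent hair cells, read 5.73, 5.51, 5.68 and 5.96 in knockout and 5.62, 5.44, 5.64 and 5.30 in control cochlea. In Dll1, 3 of 4 knockout animals lay above all 4 control animals. The difference in Dll1 was 0.22 (SE 0.13, interval -0.06 to 0.49; adjusted p = 0.428), and the second feature of the gene gave 0.12 (SE 0.16). Without knockout replicate 2, the lowest of its group, the difference in Dll1 was 0.29 at an unadjusted p of 0.0454 and an adjusted p of 0.247.

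Lfng encodes lunatic fringe, a glycosyltransferase that adds sugars to Notch and shifts its response from Jagged towards Delta ligands. It read 6.77, 7.05, 6.99 and 6.96 in knockout and 7.18, 7.27, 6.82 and 7.10 in control cochlea. Control replicate 3 was the only control animal within the knockout range, and the other 3 lay above all knockout animals. The difference in Lfng was -0.15 (SE 0.12, interval -0.40 to 0.11; adjusted p = 0.548). Without control replicate 3 it was -0.24 at an unadjusted p of 0.0469 and an adjusted p of 0.209, and after cyclic loess with all arrays it was 0.036.

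The effectors Hes1 and Hes5 varied most between animals. Hes1, a repressor that oscillates in many progenitor cells and keeps them undifferentiated, read 6.50, 5.82, 6.07 and 6.05 in knockout and 6.22, 6.32, 5.51 and 6.03 in control cochlea. Knockout replicate 1 was the highest and control replicate 3 the lowest, almost a log2 unit apart, and the pooled SD of 0.32 was the largest of the 10 genes. The difference in Hes1 was 0.09 (SE 0.18, interval -0.30 to 0.47). Its sign turned without knockout replicate 1 (-0.042) and without control replicate 3 (-0.081).

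Hes5, the Notch effector of supporting cells around hair cells, read 5.25, 4.51, 4.76 and 4.83 in knockout and 4.98, 4.79, 5.25 and 4.93 in control cochlea. Knockout replicate 1 and control replicate 3 were equally high to 2 decimals, while the lowest 2 animals were knockout. Its difference was -0.15 (SE 0.16, interval -0.49 to 0.19; adjusted p = 0.659). It depended on single animals, at -0.038 without knockout replicate 2 and -0.28 without knockout replicate 1. The second feature of Hes5 gave nearly the same difference, -0.16 (SE 0.14), though not the same order of animals. On that feature the knockout arrays read 4.95, 5.13, 4.69 and 4.54 and the control arrays 4.95, 5.15, 4.90 and 4.93. Knockout replicate 2 was thus the lowest animal on one feature and the second highest on the other.

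Neither of the Hey genes passed. Hey1, a repressor expressed in prosensory and supporting cells and in vessels, read 7.33, 6.94, 6.88 and 7.12 in knockout and 7.26, 7.39, 7.09 and 7.25 in control cochlea. Knockout replicate 1 lay among the control animals, and 2 of the other 3 lay below all of them. The difference in Hey1 was -0.18 (SE 0.12, interval -0.44 to 0.08; adjusted p = 0.480). Without knockout replicate 1 it was -0.27 at an unadjusted p of 0.0468 and an adjusted p of 0.421. After cyclic loess it was 0.017, on the same side of 0 as Hey2 (0.20). Hey2, which helps keep pillar cells as supporting cells, read 5.89, 5.45, 5.45 and 5.66 in knockout and 5.45, 5.54, 5.19 and 5.33 in control cochlea. Knockout replicates 1 and 4 lay above all control animals, and the other 2 lay within the control range. With a difference of 0.23 (SE 0.13, interval -0.05 to 0.52; adjusted p = 0.416), Hey2 had the smallest p of the 10 genes. Of the 3 genes whose promoters held GTGGGAA, Hes5 and Lfng thus had differences below 0 and Hey2 one above 0.

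**Figure D2:**
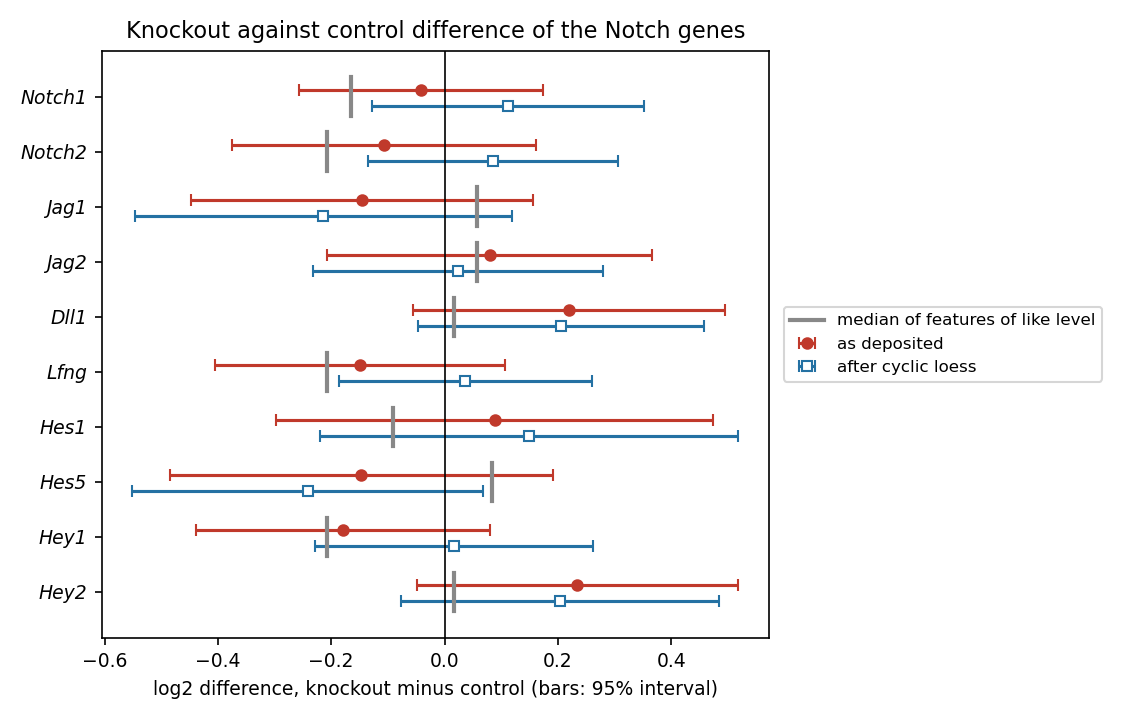
Log2 difference, knockout minus control, of each Notch gene with its 95% interval, as deposited (red circles) and after cyclic loess normalization (blue squares); the grey tick is the median difference of all features in the same decile of mean level. All 20 intervals include 0, and Notch1, Notch2, Lfng and Hey1 change side after cyclic loess.

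Differences over the whole array depended on the level of a feature, and the signs of Notch1, Notch2, Lfng and Hey1 changed after cyclic loess. When the features were split into 10 deciles by mean level, the dimmest decile had a median difference of 0.13 and the brightest one of -0.21. The SD of the log2 values on an array averaged 1.40 ± 0.03 over the knockout and 1.49 ± 0.06 over the control arrays (SD, n = 4). The part of this array-wide spread in the Notch values was not tested. Notch2, Lfng and Hey1 lay in the highest decile and Notch1 in the ninth, where the median was -0.16. All 4 had differences below 0 that were closer to 0 than their decile's median. Read against the median of its own decile, a difference was above it in 8 of the 10 genes and below it in 2, Jag1 (by -0.20) and Hes5 (by -0.23). After cyclic loess the same 2 genes had differences below 0, Jag1 -0.21 and Hes5 -0.24, while the other 8 ran from 0.017 to 0.21. The adjusted p of the 10 genes was then at least 0.596, and their median difference was 0.061, beside a median of -0.0050 over all features.

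Other genes of the pathway were taken from lists of receptors and ligands, glycosyltransferases, ubiquitin ligases, proteases, nuclear partners, inhibitors and further effectors. Of 50 such genes, 48 were analysed here. No gene passed the adjusted threshold. At an unadjusted p under 0.05 there were 9 of 48, which is 18.8%, with 8 lower and 1 higher in knockout cochlea; over all features 7.25% were lower and 7.04% higher at that p. Leaving out knockout replicate 3 gave a count of 4, and leaving out either knockout replicate 4 or control replicate 2 gave 5. The median difference of the 48 genes was -0.08. Groups did not overlap at 3 of 48 genes, 6.25%, near the 5.96% of all features. After cyclic loess 5 genes had an unadjusted p under 0.05, 3 lower and 2 higher, beside 9.54% of all features under that scaling (4.05% lower and 5.49% higher).

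The proteases that cut Notch and the nuclear partners of RBPJ held 6 of these 9 genes. Psenen, a small subunit of the gamma-secretase complex, read 8.75, 8.54, 8.44 and 8.44 in knockout and 9.05, 9.07, 8.72 and 9.24 in control cochlea. Control replicate 3 alone lay within the knockout range. Its difference was -0.48 (SE 0.12, unadjusted p = 0.00190, adjusted p = 0.291) and was smaller after cyclic loess, at -0.29. The second feature of Psenen gave -0.15 (SE 0.11) and, after cyclic loess, 0.06, so the features of this gene disagree. Adam10, the protease of the first ligand-dependent cut, was at -0.36 (SE 0.15).

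Among the 11 nuclear partners measured, the coactivator acetyltransferase genes Crebbp and Ep300 were at -0.39 (SE 0.15) and -0.31 (SE 0.12). Snw1, a coactivator of the Notch complex and a splicing factor, was at -0.36 (SE 0.13), and Cir1, a corepressor that binds RBPJ, also at -0.36 (SE 0.12). In Cir1 the knockout animals read 5.43, 5.49, 5.44 and 5.38 and the control animals 5.60, 5.78, 5.68 and 6.12. The groups of Cir1 did not overlap, and the same held for Snw1 and Hes3, yet the adjusted p of the 3 genes was 0.301 to 0.305. Crebbp, Ep300, Snw1 and Adam10 lay in the highest decile of mean level, and after cyclic loess their differences were -0.10 to -0.18, with unadjusted p values above 0.05. Cir1 was then at -0.38. Rbpj, named here after its values were seen because it encodes the DNA-binding partner itself, was at 0.10 (SE 0.13) as deposited and at 0.28 after cyclic loess (unadjusted p = 0.0181). The second feature of Rbpj gave 0.06 (SE 0.18) and, after cyclic loess, -0.0088, so the features of Rbpj differ after cyclic loess.

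Of the remaining 3 genes, Poglut1, which adds glucose to Notch, was at -0.34 (SE 0.12; -0.31 after cyclic loess). Mib1, the ubiquitin ligase that lets ligands pull on Notch and the ninth gene by p, was named after its values were seen and was at -0.32 (SE 0.13; -0.19 after cyclic loess). Hes3, another Hes repressor, was the 1 gene at a higher value. It read 5.42, 5.65, 5.37 and 5.72 in knockout and 5.21, 5.21, 5.32 and 4.75 in control cochlea. All 4 knockout animals lay above all 4 control animals, with a difference of 0.42 (SE 0.14, adjusted p = 0.301; 0.37 after cyclic loess). The 7 other receptors and ligands ran from -0.25 to 0.27 and the 9 inhibitors and turnover genes from -0.28 to 0.20. Of these 16, 0 had an unadjusted p under 0.05, beside 14.3% of all features, and so few genes cannot show a lower share.

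**Figure D3:**
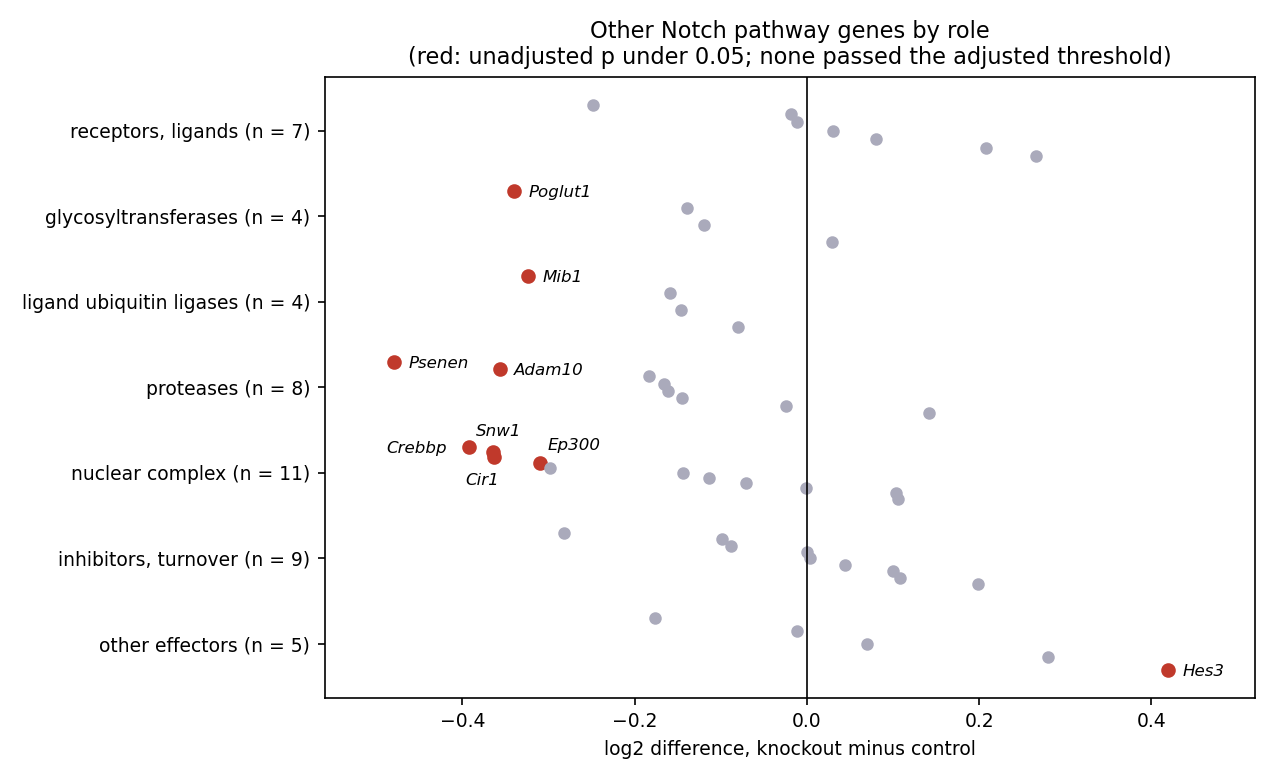
Log2 difference, knockout minus control, of 48 other Notch pathway genes in rows by role, with the number measured in each row; red points are the 9 genes at an unadjusted p under 0.05. Of these, 8 lie left of 0, Hes3 lies right of 0, and none passed the adjusted threshold.

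Regulators that act beside Notch in the sensory epithelium were compared too. Of 9 such genes 8 were measured, and 2 had an unadjusted p under 0.05, both lower, which is 25.0% beside 14.3% of all features. Id3, an inhibitor of basic helix-loop-helix factors, was at -0.37 (SE 0.14; -0.18 after cyclic loess). Eya1, a transcriptional coactivator needed for ear formation, was at -0.24 (SE 0.10; -0.022 after cyclic loess). The supporting cell gene Sox2 and the hair cell determinant Atoh1, both named after their values were seen, were at 0.11 (SE 0.20) and 0.04 (SE 0.12) as deposited and at -0.0039 and -0.032 after cyclic loess; with the SD of each array's log2 values as a covariate they were at 0.59 (unadjusted p = 0.0246) and -0.10. After cyclic loess 1 of the 8 genes, Prox1 at -0.31, named after its values were seen, had an unadjusted p under 0.05.

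Markers of cell types that use Notch were set beside these values. Each count in these lists is of genes at an unadjusted p under 0.05, to be read beside 14.3% of all features (7.25% lower) as deposited and 9.54% (4.05% lower, 5.49% higher) after cyclic loess. In the supporting cell list 4 of 13 genes (30.8%) had such a p, all lower, with Fbxo2 at -0.42 and Slc1a3 at -0.29 lowest in p. After cyclic loess 4 did, all lower, but not the same 4. Fbxo2, then at -0.20 (unadjusted p = 0.201), was no longer among them, and Prox1 was. The mean level of the list ran from 5.76 to 6.04 in knockout and from 5.95 to 6.18 in control animals. In the endothelial list 0 of 12 genes had an unadjusted p under 0.05 (Egfl7 0.16, Kdr -0.17), with levels of 6.12 to 6.22 and 6.12 to 6.31. After cyclic loess 2 of the 12 did, both higher: Egfl7 at 0.28 (unadjusted p = 0.0150) and Cdh5, named after its values were seen, at 0.24 (unadjusted p = 0.0348). In the mural cell list 0 of 8 did under either scaling (Abcc9 -0.27, Pdgfrb -0.26), with levels of 6.54 to 6.63 and 6.66 to 6.83. As deposited these levels do not overlap, nor do those of the hair cell and neuronal lists given below. How often the levels of other lists would do so was not tested. A list level is a mean, so a few genes can move it. The median level percentile of the mural list was 77.4, and all features of the eighth decile had a median difference of -0.09. The median difference of the mural list was -0.18 as deposited and -0.06 after cyclic loess. Hair cell genes had 2 of 13 under either scaling, which is 15.4%, near the 14.3% of all features as deposited. Both were lower, Pcp4 at -1.04 and Myo6 at -0.53, while the other 11 ran from -0.14 (Ocm) to 0.096 (Cabp2), 6 of them above 0, at list levels of 5.53 to 5.68 and 5.69 to 5.78.

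Markers of the other tissues in the sample were read in the same way. Neuronal genes had 8 of 11 at an unadjusted p under 0.05, all lower (6 after cyclic loess), among them Snap25 at -1.09 (adjusted p = 0.0389; called in 5 of 18 alternatives, not after cyclic loess) and Calb1 at -1.08, with list levels of 5.69 to 6.03 in knockout and 6.16 to 6.58 in control animals. Skeletal muscle genes had 6 of 10, all lower (4 after cyclic loess), with Actn3 at -0.90 and Pvalb at -0.96 and levels of 5.49 to 6.81 and 6.61 to 8.67. Bone and cartilage had 3 of 7 lower and 2 after cyclic loess (Col1a1 -0.42, Col1a2 -0.33; levels 8.54 to 8.97 and 8.72 to 9.14), and B cells 5 of 7, but 1 after cyclic loess (Cd79b -0.44, Pax5 -0.52; levels 7.09 to 7.36 and 7.36 to 7.69). Myelinating glia had 3 of 8 under either scaling, 2 of them lower, though not the same genes under each. Mal was at -0.57 and Ugt8a at -0.44 as deposited. After cyclic loess Ugt8a was at -0.24 and no longer counted (unadjusted p = 0.0970 in limma). List levels were 6.18 to 6.48 in knockout and 6.43 to 6.74 in control animals. Erythroid cells had 1 of 5, and 0 after cyclic loess (Slc4a1 -0.41, Rhag -0.45), with levels of 7.38 to 7.90 and 7.47 to 8.33. No value in the table was 0, and no detection call was used. The part of these cell types in the values of the Notch genes and of their pathway was not tested.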

How the data were processed

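The deposited log2 expression values are gene-level RMA summaries from Affymetrix Expression Console, per the labels. Its version, the annotation release and which arrays were normalized as one set are unstated in the sources used here. RMA corrects background, equalises array distributions and summarises probes by median polish, which can shrink differences. Of 41345 features, 23521 with 1 symbol were tested and 1814 with several and 16010 with none were left out; a gene with several features was represented by the one with the highest mean. No filter on low values was applied.

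The comparison of genotypes used limma 3.58.1 and R 4.3.3 (lmFit, eBayes with an intensity trend), with Benjamini-Hochberg adjustment over all 23521 features and a threshold of 0.05. SE and 95% intervals are limma's. The steps were tested on simulated data. No background level was used, the number of arrays limits the precision, and no batch label was used. Replicates are separate animals.

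The genes and lists were chosen with earlier results of these data known. The naming rule took the 10 Notch genes, the microRNA cluster, the 8 other pathway genes with the smallest p, the 2 genes with the smallest p in each further list, and the 3 features most like each of the 2 Notch genes with the smallest p; genes named beyond it are marked. The alternatives tried were a block for the replicate number, eBayes without trend or with robust variance, array weights, median-centring, repeated quantile or cyclic loess normalization, signal range (the SD of an array's log2 values) as a covariate, a mean of at least 5, all features, other features of a gene, a threshold of 0.1 and leaving out each array.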

Additional observations from a re-analysis of the deposited data

Results flagged for a closer look

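In 46 groups of 4 animals, covering the Notch genes, the named pathway genes and the microRNA cluster, 2 held an animal far from the other 3; chance flags about 1 in 20 groups. None of these was a Notch gene. For Mir183, knockout replicate 3 read 1.82 and the next value was 2.38. The feature lay at the 3.51th percentile of mean level, and its difference was -0.33 as deposited and -0.45 after cyclic loess (unadjusted p = 0.0194). For Mir96, knockout replicate 1 read 4.01 and the next value was 4.26, which leaves it on the knockout side of all control animals.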

How the results depend on the processing

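None of the 10 Notch genes passed in any of 183 alternative values (lowest adjusted p 0.209), and the count called was 0 under each setting; 0 had an unadjusted p under 0.05 except that 1 did without knockout replicate 1 or 2 or control replicate 3 (Hey1, Dll1 and Lfng in turn), so that count ran from 0 to 1 over the left-out arrays. Signs were less stable: 16 of the 183 values turned, in 8 of the 10 genes. Values with the replicate block, without trend, with robust variance, with a mean of at least 5 or with all features could not turn. Those settings leave a difference as it is. Hes5 and Hey2 had no turned value, but Hes5 ran from -0.42 (signal range) to -0.038 (without knockout replicate 2). Repeated quantile normalization gave 0.094 for Notch1, 0.073 for Notch2, 0.032 for Lfng and 0.011 for Hey1, and cyclic loess 0.11, 0.086, 0.036 and 0.017. Adjusted for signal range, Notch2 was at 0.13, Jag1 at 0.092, Jag2 at -0.089, Dll1 at -0.060 and Lfng at 0.048. Leaving out 1 array, Notch1 ran from -0.085 to -0.012, Notch2 from -0.21 to -0.031, Jag1 from -0.21 to -0.054, Jag2 from -0.010 to 0.15, Dll1 from 0.14 to 0.29, Lfng from -0.24 to -0.088, Hes1 from -0.081 to 0.19, Hes5 from -0.28 to -0.038, Hey1 from -0.27 to -0.12 and Hey2 from 0.14 to 0.29. The median of the 10 genes moved by more than the spread between animals after repeated quantile normalization (0.053) and cyclic loess (0.061), and was -0.04 to -0.07 over the left-out arrays. Both normalizations act on how difference depends on level by construction; other causes were not tested.

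The count of other pathway genes at an unadjusted p under 0.05, 9 as deposited, was 5 after repeated quantile normalization or cyclic loess, 2 adjusted for signal range and 4 to 13 over the left-out arrays. Over all features that count, 3361, became 2228 after repeated quantile normalization, 1400 adjusted for signal range and 5253 with all features of the table, and over the left-out arrays ran from 1902 with control replicate 4 left out (2023 for control replicate 2, 2116 for knockout replicate 4) to 5501 with control replicate 3 left out. The 3 called features became 8 with array weights, 2 after repeated quantile normalization or cyclic loess, 1 with signal range, 1 with all features and 7 at a threshold of 0.1, and ran from 1 (without control replicate 1) to 21 (without control replicate 3). Sox2 was at -0.0051 with array weights, -0.0039 after cyclic loess, 0.59 adjusted for signal range (unadjusted p = 0.0246) and -0.13 to 0.20 over the left-out arrays, and Atoh1 at -0.032 after either normalization, -0.10 adjusted for signal range and -0.023 to 0.10 over the left-out arrays. The remaining named genes with a turned sign had it with signal range: Adam10 0.0085, Mib1 0.029, Kdr 0.16, Abcc9 0.020, Slc4a1 0.00062, Rhag 0.15, Epgn -0.082, Olfr771 -0.065 and 4930519G04Rik -0.28. Signal range overlaps with genotype, so these values do not show a direction. Hes5 has no value under the filter on a mean of at least 5.

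Same-numbered animals did not all deviate together (correlations of 0.0570, 0.212, 0.215 and -0.289 over features). Array-wide effects enter these correlations, so they cannot settle whether the numbers pair animals. The main comparison did not pair them. With the replicate number as a block 3 features were called, 0 of the Notch genes had an unadjusted p under 0.05, 9 other pathway genes did, and 3656 features did. The number of arrays limits the precision, and signal over background was not measured.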

Other observations

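The features whose values over the 8 arrays were most like those of Hey2 were Gm20385 (Pearson r 0.990), 6230400D17Rik (0.966) and Sema3f (0.962), with log2 differences of 0.39, 0.24 and 0.20. Those most like Dll1 were Epgn (0.983), the olfactory receptor gene Olfr771 (0.976) and 4930519G04Rik (0.974), with differences of 0.22, 0.21 and 0.33. They are the extremes of 23521 features over 8 arrays that share array-wide effects, so these correlations describe likeness on these arrays only, and 0 of these 6 features passed the adjusted threshold.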
